A study of Mus musculus with 6 samples.

Results

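Target clusters of miR-9-5p were taken from AGO2 chimeric eCLIP of newborn mouse brain, an assay in which a miRNA held by AGO2 is ligated to the RNA it sits on, so that 1 read carries both. Members were every deposited target cluster assigned to miR-9-5p: 4978 of 66068 assignments over 3 libraries. The WT library held 2013 of 22074, *Mov10* Deletion replicate 1 held 2041 of 30526 and *Mov10* Deletion replicate 2 held 924 of 13468. All animals were C57Bl/6J at postnatal day 0, and whole brain was used. *Mov10* Deletion mice came from breeding a conditional line, in which *Emx1*-Cre removes floxed exons of *Mov10*, with mice heterozygous for a *Mov10* mutation. *Emx1*-Cre acts in excitatory neurons of neocortex and hippocampus, so whole brain also holds cells in which it does not act. The *Mov10* Deletion libraries came from 2 brains, and the WT library from WT brain. There was 1 WT library, so no difference between genotypes could be tested. Intervals in brackets are exact 95% binomial (Clopper-Pearson) intervals, which cover counting error over clusters only, and clusters of 1 library are not replicates.

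miR-9 is a brain-enriched miRNA, abundant in neural progenitors and young neurons, where it is known for limiting progenitor genes and tuning axon growth. Like other miRNAs it guides AGO2 to mRNAs that pair with its seed, nucleotides 2 to 8, mostly in 3′UTRs, and lowers their translation and stability. MOV10 is an RNA helicase that associates with AGO2, and the comparison asks where miR-9-5p sat on RNA in WT and in *Mov10* Deletion brain. By the paper's account MOV10 was reduced in these mice, not wholly absent.

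The mature sequences (RefSeq, GRCm38.p6) are given with the seed in capitals. miR-9-5p is encoded by *Mir9-1* (chr3:88215613-88215635), *Mir9-2* (chr13:83738821-83738843) and *Mir9-3* (chr7:79505279-79505301), all on the plus strand, and miR-9-3p comes from the other arm of the same hairpins.
miR-9-5p: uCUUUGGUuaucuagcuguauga
miR-9-3p: aUAAAGCUagauaaccgaaagu
The seeds differ, and the sets of clusters were counted apart: miR-9-3p had 197 clusters in WT and 273 and 119 in *Mov10* Deletion replicates 1 and 2. No miR-9-5p cluster lay on a miR-9 hairpin itself.

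The DNA-letter match to the miR-9-5p seed is ACCAAAG, and the lines that follow show where it was found. They hold the 10 places where the same 7-nt match lay inside a miR-9-5p cluster of all 3 libraries, plus the *Sirt1* site, found in WT and replicate 2. *Slc8a1* was named by the rule for site sequences, and the others were chosen after their values were seen. Capitals mark the 7 matching bases.
Slc8a1: ctttccattcaaaatACCAAAGagcag
Rnf146: agatataatagatatACCAAAGaaggg
Serpini1: catgcagaatcaaacACCAAAGtaagc
Lrrc8d: gggaccatgcaacttACCAAAGatcag
Magt1: gtagttaatcattaaACCAAAGatgtg
Plscr3: taaaaggcaagcagtACCAAAGatggc
Icmt: gttgttgttctatatACCAAAGaggct
Pskh1: ccactgggaaactaaACCAAAGagacc
Atf2: cttgttatcatttatACCAAAGttctg
Ano6: ccggacagcaccatcACCAAAGaccag
Sirt1: gaacagcttatctagACCAAAGaatgg

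These sites were read from GRCm39 transcripts, because no mm10 genome was used here. A gene end was linked between builds only where its promoter sequence matched exactly and the distance from promoter to transcript end was the same in both, and positions were counted back from that end within the last exon. Cluster coordinates stayed in mm10 throughout.

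The *Slc8a1* site, in the gene of a sodium-calcium exchanger, began at nucleotide 1777 of the 3′UTR. Its cluster (chr17:81386862-81386953, minus strand, mm10) scored 12.8 in WT, 8.0 in replicate 1 and 5.68 in replicate 2. In *Rnf146*, which encodes an E3 ubiquitin ligase, the site lay upstream of the stop codon in the last exon, with scores of 29.7 in WT, 8.53 in replicate 1 and 10.3 in replicate 2 (WT cluster chr10:29347309-29347396, minus strand). The *Lrrc8d* site, in the gene of an anion channel subunit, was also upstream of the stop codon and scored 13.7, 5.85 and 6.79 in the same order. For *Serpini1*, which encodes neuroserpin, the cluster (chr3:75641122-75641266, plus strand, in WT) held the match at nucleotide 479 of the 3′UTR and scored 17.2 in WT, 8.30 in replicate 1 and 3.76 in replicate 2. Of these 10 sites, 8 were in a 3′UTR and 2 upstream of the stop codon of the transcript used. The *Sirt1* site, in the gene of an NAD-dependent deacetylase and established miR-9 target, began at nucleotide 674 of the 3′UTR, with a score of 17.3 in WT (chr10:63320243-63320339, minus strand) and 6.0 in replicate 2.

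Seed matches marked the miR-9-5p clusters off from those of other miRNAs in every library. Sequence was available for 569 of the 4978 clusters (11.4%), which were those inside a linked last exon. ACCAAAG was present in 75 of 249 such clusters in WT, or 30.1% (24.5 to 36.2). It was present in 39 of 215 in replicate 1, or 18.1% (13.2 to 24.0), and in 23 of 105 in replicate 2, or 21.9% (14.4 to 31.0). Clusters of all other miRNAs held it in 1.67%, 1.82% and 1.61% in the same order. Median widths of the linked clusters were 81, 70 and 79 nt for miR-9-5p and 85, 70 and 73 nt for the others. Clusters of miR-9-3p held it in 0 of 94, an upper bound of 3.85%. The WT interval lay above that of replicate 1 and overlapped that of replicate 2, and the difference between libraries was not tested. With clusters widened by 20 nt on each side the shares were 30.5% in WT, 21.4% in replicate 1 and 21.9% in replicate 2.

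**Figure D1:**
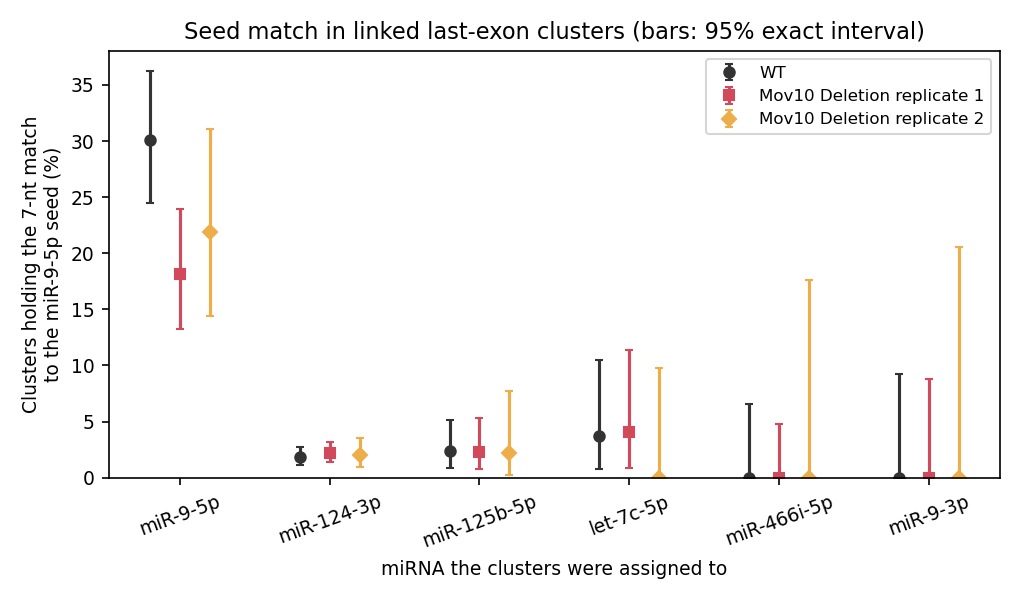
Share of linked last-exon clusters, in percent, that hold the 7-nt match to miR-9-5p nucleotides 2 to 8, by the miRNA the cluster was assigned to and by library; points are shares and bars exact 95% intervals. The miR-9-5p clusters lie at 18.1 to 30.1%, and the other sets at 4.05% or below.

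Shorter matches covered most of the linked clusters. CCAAAG, the match to nucleotides 2 to 7, was found in 56.6% (50.2 to 62.9) of WT clusters, 46.5% (39.7 to 53.4) of those of replicate 1 and 44.8% (35.1 to 54.8) of those of replicate 2, against 4.35%, 4.54% and 4.48% in clusters of other miRNAs. At least 1 of CCAAAG and ACCAAA, which overlap in ACCAAAG, was present in 397 of 569 clusters (69.8%) against 7.79% for the other miRNAs. When all hexamers were ranked by the difference in share between miR-9-5p clusters and the rest, the first was CCAAAG, at 50.6% against 4.46%. ACCAAA came next, at 44.3% against 5.08%. The fourth, GCCAAA, is not part of the 7-nt match and was at 24.4% against 2.49%. Among the 288 clusters with CCAAAG, an adenine stood before it in 135 (46.9%) and a guanine in 77 (26.7%). In clusters of other miRNAs that held CCAAAG by the same search, a guanine stood there in 53 of 337 (15.7%), whose interval ended at 20.1%, below the interval of 21.7 to 32.2 for miR-9-5p. The sense strand of the cluster was searched.

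The same link recovered other miRNAs' own seeds. let-7c-5p clusters held the let-7c match CTACCTC in 40.3%, miR-9-5p clusters in 1.23%. miR-125b-5p clusters held CTCAGGG in 21.0%, miR-9-5p clusters in 1.05%.

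The matches sat at the middle of the clusters. Within 10 nt before the midpoint there were 15.8 CCAAAG matches per 100 miR-9-5p clusters, and within 10 nt after it 13.0. At 50 to 60 nt before and after, there were 0 and 0.351, while clusters of other miRNAs stayed between 0.278 and 0.873 over the whole window.

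**Figure D2:**
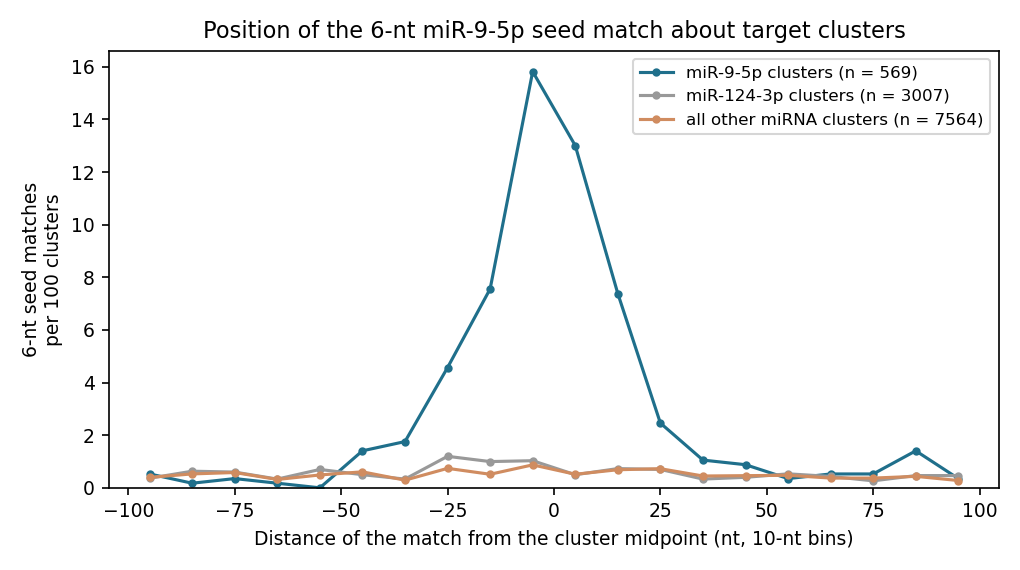
Number of CCAAAG matches (the 6-nt match to miR-9-5p nucleotides 2 to 7) per 100 clusters, in 10-nt bins of distance from the cluster midpoint, negative values being 5′ of it. The miR-9-5p line peaks at 15.8 next to the midpoint, and the lines for miR-124-3p and for all other miRNAs stay below 2.

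Where the last exon was linked and coding, most clusters lay wholly in the 3′UTR: 218 of 247 in WT (88.3%, 83.6 to 92.0), 177 of 209 in replicate 1 (84.7%, 79.1 to 89.3) and 89 of 103 in replicate 2 (86.4%, 78.2 to 92.4). Clusters of other miRNAs were there in 93.1%, 91.8% and 91.0%. Only clusters inside a linked last exon were counted, which favours the 3′UTR, so these are not shares of all miR-9-5p clusters. Upstream of the stop codon lay 24, 24 and 14 miR-9-5p clusters. WT clusters with and without an overlapping partner in *Mov10* Deletion held ACCAAAG with overlapping intervals, in 32 of 112 (28.6%, 20.4 to 37.9) and 43 of 137 (31.4%, 23.7 to 39.9).

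Each cluster carries a deposited score whose definition is not given in the sources used here. The smallest was 3, and 14.2% of scores were whole numbers in WT, 30.3% in replicate 1 and 37.1% in replicate 2. The median score was 4.86 in WT, 4.20 in replicate 1 and 4.0 in replicate 2, close to the medians of 4.62, 4.0 and 4.0 for the other miRNAs. Scores of 10 or more were held by 303 WT clusters (15.1%), 193 clusters of replicate 1 (9.46%) and 63 of replicate 2 (6.82%). Scores were therefore compared between genes within a library, and between libraries only side by side. Clusters were short, with median widths of 77, 68 and 72 nt.

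A part of the clusters was assigned to further miRNAs as well: 469 in WT (23.3%, 21.5 to 25.2), 373 in replicate 1 (18.3%, 16.6 to 20.02) and 126 in replicate 2 (13.6%, 11.5 to 16.0). The share over all other assignments was 28.8%, 17.5% and 12.8%. miR-124-3p, the main neuronal miRNA, was the most frequent partner in each library, on 300, 209 and 74 of these clusters, with miR-125b-5p and let-7c-5p next. It also had far more clusters than those partners, at 9312, 10630 and 4962. Relative to its number it was shared least: in WT 300 of 9312, against 91 of 1354 for miR-125b-5p and 62 of 777 for let-7c-5p. Clusters of mixed assignment cannot be split between the miRNAs.

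Nearly all clusters lay in a gene on its own strand: 1951 in WT (96.9%), 1976 in replicate 1 (96.8%) and 900 in replicate 2 (97.4%). They fell in 1515, 1478 and 750 genes, of which 1469, 1427 and 720 were protein-coding. A single cluster was the rule, in 1225, 1167 and 649 of those genes. Brain identity was checked on AGO2 clusters. All 12 brain markers carried them in every library, with 338 to 559 clusters, while 4 or 5 of 12 markers of other organs did, with 6 to 11 clusters. Enriched AGO2 clusters, with log2 IP over input and −log10 p both at 3 or more, did not separate the lists in every library: they lay on 1, 9 and 4 brain markers and on 2, 2 and 3 markers of other organs in WT, replicate 1 and replicate 2. Of the brain markers, 9 had a target cluster of any miRNA in each library, and 3, 5 and 5 had one of miR-9-5p. The markers of other organs with a target cluster of any miRNA were 3, 2 and 1, too few to read the absence of miR-9-5p among them.

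Over the 3 libraries, 2436 genes had a miR-9-5p cluster, and 378 had one in all 3. That is 24.95% of the WT genes, beside 44.2% for genes with a miR-124-3p cluster, which had more clusters per library. Of the WT genes, 650 (42.9%) had none in either *Mov10* Deletion library, beside 21.1% (972 of 4602) for miR-124-3p. Those 650 had low scores: their median best score was 4.31 and 16 reached 10, whereas the 378 shared genes had a median of 9.76 in WT and 177 of them reached 10. Of the 442 genes with a cluster in both replicates, 64 (14.5%) had none in WT, beside 12.2% (283 of 2317) for miR-124-3p. The median best score of the 64 was 4.0 in each replicate. Cluster limits of the replicates were not independent (see recurrence), so a gene found in both is not a replicated finding.

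The highest scores common to all 3 libraries fell on ribosomal RNA. *mt-Rnr2*, the large mitochondrial ribosomal RNA, had best scores of 1678 in WT, 1019 in replicate 1 and 578 in replicate 2, at almost the same place (chrM:1236-1373 in WT, plus strand). At that place 27, 22 and 18 other miRNAs had a cluster too, the highest being miR-124-3p at 71.2, 57.0 and 31.2, so miR-9-5p led there in every library. *Rn18s-rs5*, a copy related to small-subunit ribosomal RNA, had 173, 117 and 75.1, but miR-124-3p was higher there at 202, 215 and 94.2. The AGO2 log2 enrichment at the *mt-Rnr2* place was -2.59 in WT, and no AGO2 cluster lay there in *Mov10* Deletion. Ribosomal copies share reads, so values at *Rn18s-rs5* are uncertain.

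**Figure D3:**
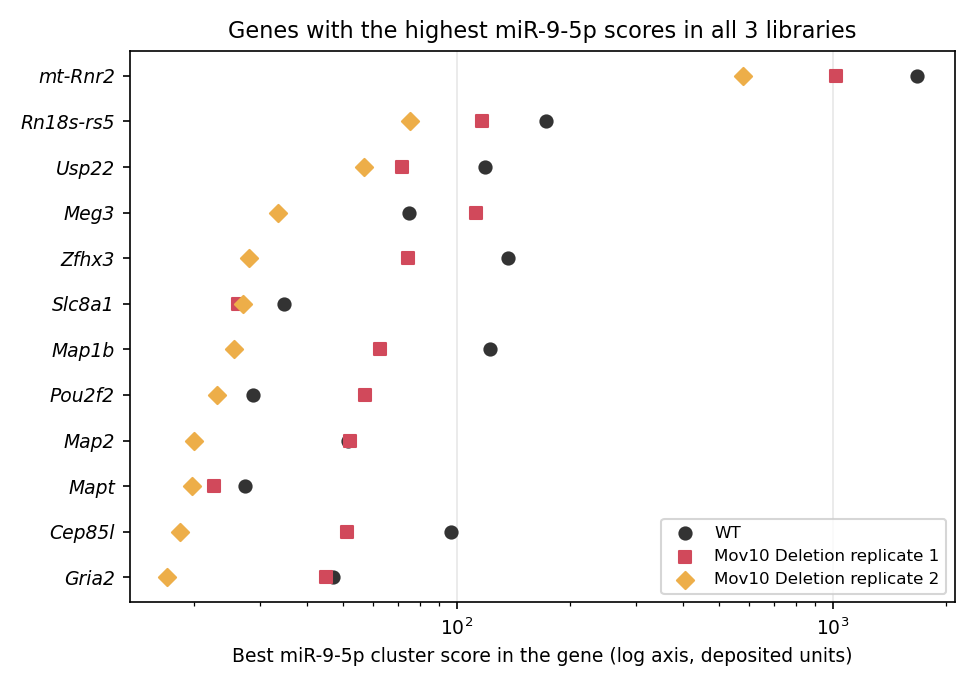
Best miR-9-5p cluster score of the 12 genes with the highest lowest-library score, on a log axis, with 1 point per library. *mt-Rnr2* stands apart at 578 to 1678, the other genes lie between 17.0 and 173, and replicate 2 is the lowest of the libraries in 11 of the 12.

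Among protein-coding genes, *Usp22*, the deubiquitinase of a histone-modifying complex, came first, with best scores of 119 in WT, 71.8 in replicate 1 and 56.6 in replicate 2. Its cluster (chr11:61166666-61166737, minus strand, in WT) lay 14920 nt from the gene end. *Zfhx3*, a zinc-finger homeobox transcription factor, had 137, 74.5 and 28.1, at 4952 nt from the end (chr8:108956642-108956726, plus strand). The *Zfhx3* cluster lay on AGO2 signal with a log2 enrichment over input of 5.69 in WT and 5.36 and 4.93 in *Mov10* Deletion. *Cep85l*, a centrosomal gene, had 96.5, 51.0 and 18.4, only 151 nt from its end, on AGO2 clusters with log2 enrichments of 6.62, 7.13 and 7.34. For these 3 genes WT was highest and replicate 2 lowest.

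*Map1b*, which encodes a microtubule-associated protein of growing axons and is an established miR-9 target, had 123, 62.5 and 25.5. The best cluster was at chr13:99424874-99424931 (minus strand) in WT and overlapped that of replicate 1, but lay elsewhere in replicate 2, at chr13:99432688-99432776. *Map2*, of dendritic microtubules, had 51.4, 52.2 and 20.1, and *Mapt*, which encodes tau, had 27.4, 22.6 and 19.7. WT and replicate 1 thus nearly coincided for *Map2*.

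*Meg3*, an imprinted long noncoding RNA, was higher in replicate 1 (113) than in WT (74.6) or replicate 2 (33.6), at a place with AGO2 log2 enrichments of only 0.40, 0.03 and 0.13. *Pou2f2*, a POU-domain transcription factor, had 28.8 in WT, 57.0 in replicate 1 and 23.1 in replicate 2. Its cluster (chr7:25089380-25089483, minus strand) was the place of a miR-9-3p cluster as well in WT (6.97) and replicate 1 (9.92). *Slc8a1* had its best scores of 34.7, 26.2 and 27.0 far from the 3′UTR site shown above, 216672 nt from the gene end in WT. *Gria2*, an AMPA receptor subunit, had 47.0, 44.9 and 17.0. Of these 12 genes, only *Slc8a1* and *Gria2* had clusters inside a linked last exon, and the 4 of *Gria2* held no CCAAAG.

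Clusters were spread along genes. *Celf2*, which encodes a splicing regulator, had 13, 12 and 8 clusters, and the next genes by number after the ribosomal copy (14, 16 and 14) were *Map1b* (7, 12 and 9), *Ptprd*, a receptor phosphatase (8, 9 and 5), and *Rbfox1*, a neuronal splicing factor (5, 8 and 7). Many clusters did not mean high scores, as best values in *Ptprd* were 7.21, 5.93 and 4.0.

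Of the established miR-9 targets, 8 of 19 had a cluster in any library and 3 in all. Among list genes with a cluster of any miRNA, those with a miR-9-5p cluster were 7 of 14 in WT, 5 of 13 in replicate 1 and 4 of 8 in replicate 2. Over all genes with a cluster of any miRNA the share was 23.8% in WT, 19.1% in replicate 1 and 13.9% in replicate 2. No such share was computed for any library or for all libraries together. For each list, those counts thus stand without a comparator. Besides *Map1b*, the genes in all libraries were *Foxp2*, a forkhead factor of speech and motor circuits (20.2 in WT, 6.43 in replicate 1, 5.70 in replicate 2), and *Onecut2*, a transcription factor of neuronal differentiation (24.8, 5.0 and 5.39). *Foxp2* had a cluster at the same place in all 3 libraries, 3084 nt from its end in WT (chr6:15438853-15438934, plus strand) and 3092 nt in both replicates. The *Onecut2* clusters of replicates 1 and 2 did not lie on the strongest WT cluster. *Hes1*, a Notch effector of progenitors, had 3.58 in WT and 5.84 in replicate 1, both 75 nt from the gene end. *Dicer1*, the miRNA-processing enzyme, had a cluster only in WT (7.06). *Rest*, *Nr2e1* and *Pax6* were among the 11 without any. *Nr2e1* and *Pax6* had no cluster of any miRNA in any library, and *Rest* had none in replicate 2, so little can be read from their absence.

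The neural transcription factors had a miR-9-5p cluster in 17 of 30 genes, 5 of them in all libraries, and the counts among genes with any cluster were 14 of 28, 11 of 28 and 5 of 25. After *Zfhx3*, its relative *Zfhx4* had 24.8, 13.0 and 5.97. *Tcf4*, a basic helix-loop-helix factor, had 21.6, 5.42 and 3.98. *Nfib* had 4.83, 4.81 and 3.82. *Sox11* was at 5.86 in WT and 3.08 in replicate 1, with no cluster in replicate 2.

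RNA-binding proteins were hit in 23 of 34 genes, 9 in all libraries, with counts of 21 of 33, 20 of 32 and 9 of 31 among genes with any cluster. *Fxr1*, a paralogue of the fragile X protein, had 22.8, 16.7 and 8.0. *Qk*, the quaking splicing regulator, had 11.9, 10 and 7.73, and *Celf2* had 18.8 in WT, 30.6 in replicate 1 and 6.83 in replicate 2. *Rbfox1* had 10, 6.73 and 5.54, *Rbfox3* 4.70, 10.4 and 4.0, and *Nova2* 5.01, 5.72 and 4.0. The highest library differed between these genes. *Mov10* itself had no miR-9-5p cluster in any library, nor did *Ago1*, *Ago2* or *Ago3*. *Mov10* had no cluster of any other miRNA either, and *Ago2* had none in replicate 2.

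Genes of the cytoskeleton and transport were hit in 25 of 29, 9 in all libraries, with 19 of 29, 16 of 29 and 14 of 26 among genes with any cluster. After *Map2* and *Mapt*, the ankyrins *Ank3* and *Ank2*, which anchor membrane proteins to spectrin, had 41.3, 21.8 and 15.3, and 31.9, 22.11 and 12. *Dcx*, the doublecortin of migrating neurons, had 12.6, 12.8 and 5.90, and the kinesin *Kif1a* had 6.97, 4.77 and 4.87. *Numa1*, which encodes a spindle protein that binds microtubules, had 1 miR-9-5p cluster, in replicate 1 with a score of 6.0. In WT it had a target cluster of other miRNAs only. In replicate 2 it had none of any miRNA, so little can be read from its absence in that library.

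Cell adhesion and axon guidance genes were hit in 25 of 30, 8 in all libraries, with 18 of 30, 21 of 30 and 10 of 29 among genes with any cluster. The netrin receptor *Dcc* had 16.1, 13.0 and 5.0. *Dscam* had 5.0, 4.61 and 4.0. *Ncam1* had 3.93, 5.0 and 4.0, *Nrxn3* had 10.7, 14.8 and 3.92, and the plexin *Plxna2* had 10.6, 3.63 and 3.86. In all 5 lists the share with a miR-9-5p cluster was above the share over all genes in each library. The lists were chosen with earlier results of these data known, so this is a description and not a test. Background genes were not matched to list genes for their number of clusters. Counts of list genes hit in any library, or in all, had no share over all genes to stand beside.

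Recurrence rose with the score. Of the 2013 WT clusters, 839 (41.7%, 39.5 to 43.9) overlapped a miR-9-5p cluster of at least 1 *Mov10* Deletion library, against 38.9% for the other miRNAs matched with themselves and 46.9% for miR-124-3p alone. Both *Mov10* Deletion libraries held 324 of them (16.1%, 14.5 to 17.8), against 14.5% and, for miR-124-3p, 19.7%. The miR-9-5p shares thus lay between that of all other miRNAs pooled and that of miR-124-3p. Among WT clusters with scores from 3 to below 4 the share found in either library was 19.2% (16.3 to 22.4). It was 55.8% (50.8 to 60.7) from 6 to below 10, and 96.8% (90.9 to 99.3), or 90 of 93, from 20 upwards.

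**Figure D4:**
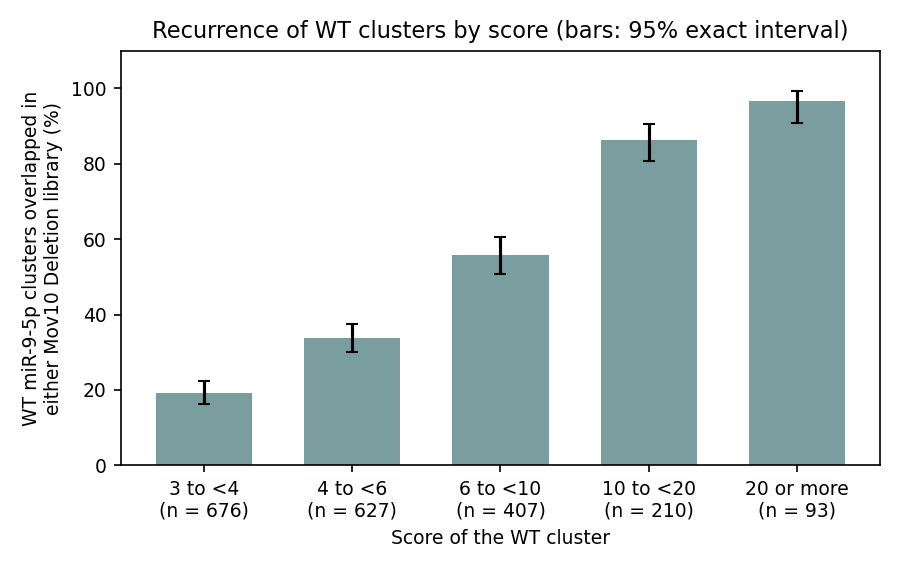
Share of WT miR-9-5p clusters, in percent, overlapped by a miR-9-5p cluster on the same strand in either *Mov10* Deletion library, by WT score class; lines on the bars are exact 95% intervals. The share climbs from 19.2% in the lowest class to 96.8% in the highest.

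In the other direction, 757 clusters of replicate 1 (37.1%, 35.0 to 39.2) and 428 of replicate 2 (46.3%, 43.1 to 49.6) overlapped a WT cluster, against 24.7% and 30.6% for the other miRNAs. For miR-124-3p alone the shares were 37.3% and 46.9%, so the miR-9-5p shares did not stand apart from those of the most abundant miRNA. Between the *Mov10* Deletion libraries, 373 clusters of replicate 2 (40.4%, 37.2 to 43.6) overlapped one of replicate 1, against 27.2% for other miRNAs. All 373 had identical coordinates in both, whereas 2 and 1 clusters were identical between WT and replicates 1 and 2. Cluster limits of the *Mov10* Deletion libraries are thus not independent of each other. The share of replicate 2 clusters found in WT was thus not below the share found in the other *Mov10* Deletion library.

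At WT clusters with a partner, scores were lower in *Mov10* Deletion on balance, for miR-9-5p as for other miRNAs. The median log2 ratio of the replicate 1 score to the WT score was -0.28 over 736 pairs, with 264 higher and 469 lower, against -0.26 for the other miRNAs. For replicate 2 it was -0.82 over 427 pairs, against -0.85. The scores were not normalized between libraries here, and depth and genotype cannot be told apart for the single WT library.

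Clusters near the end of the gene were a minority. In WT, 310 of 1951 (15.9%, 14.3 to 17.6) had their midpoint in the last 1000 nt, below the 20.4% of the other miRNAs. In replicate 1 it was 262 of 1976 (13.3%, 11.8 to 14.8) against 15.1%, and in replicate 2 132 of 900 (14.7%, 12.4 to 17.1) against 16.4%. Median distances to the gene end were 6718 nt in WT, 12709 nt in replicate 1 and 10961 nt in replicate 2. The 3 shares lay above those of miR-466i-5p (8.02%, 4.84% and 4.93%) and below those of miR-9-3p (25.7%, 20.3% and 20.7%), whose intervals overlapped those of miR-9-5p in replicate 2 alone.

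**Figure D5:**
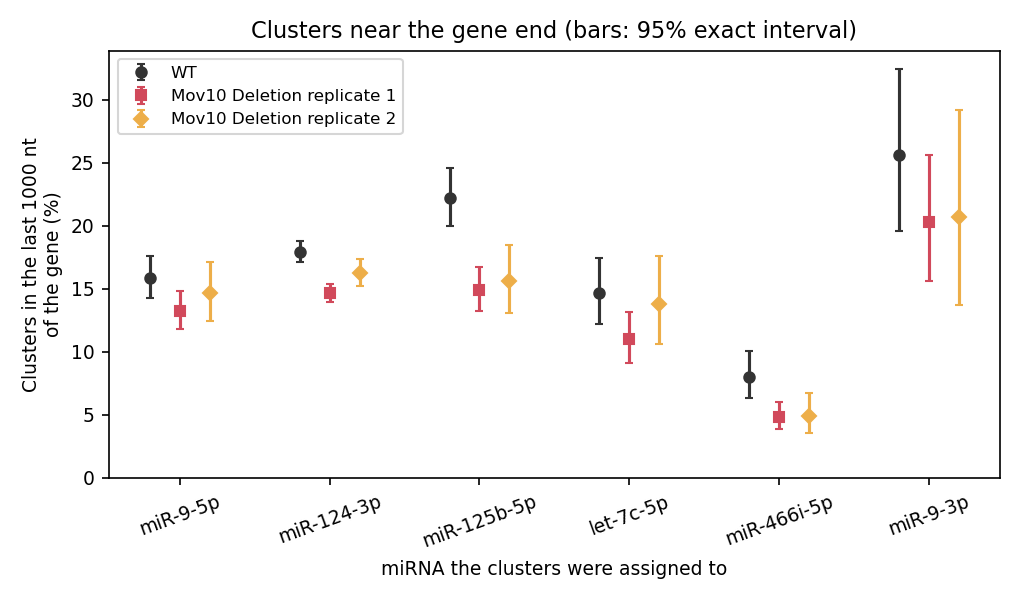
Share of in-gene clusters, in percent, with their midpoint in the last 1000 nt of the gene, by miRNA and library; points are shares and bars exact 95% intervals. The miR-9-5p points lie at 13.3 to 15.9%, between those of miR-466i-5p and miR-9-3p, and the WT point is the highest of the 3 for every miRNA shown.

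AGO2 clusters, called from reads that mapped to the genome whole, gave a second measure. Such a cluster was counted as enriched where its log2 IP over input and its −log10 p both reached 3. In WT, 337 miR-9-5p clusters (16.7%, 15.1 to 18.4) lay on an enriched AGO2 cluster, against 20.3% for the other miRNAs. In replicate 1 it was 13.6% (12.1 to 15.1) against 14.7%, and in replicate 2 16.5% (14.1 to 19.0) against 13.9%. Among miR-9-5p clusters, position went with this share. In the last 1000 nt of genes, 25.8% of WT clusters (80 of 310) lay on an enriched AGO2 cluster, as did 25.6% in replicate 1 and 27.3% in replicate 2. At 3000 nt or more from the end it was 11.6%, 8.95% and 11.4%, with intervals below those of the last 1000 nt in each library. Shares by distance were not computed for other miRNAs, so this pattern is not shown to be particular to miR-9-5p. Linked clusters with ACCAAAG lay on an enriched AGO2 cluster in 33.3% (22.9 to 45.2) against 25.9% (19.5 to 33.0) of those without in WT. The same shares were 48.7% (32.4 to 65.2) against 21.0% (15.2 to 27.8) in replicate 1 and 39.1% (19.7 to 61.5) against 29.3% (19.7 to 40.3) in replicate 2, so the intervals separated in replicate 1 alone.

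AGO2 signal on the miR-9 hairpins was strongest at *Mir9-3*, with best log2 enrichments of 7.04 in WT, 9.57 in replicate 1 and 9.05 in replicate 2. *Mir9-1* had 3.66, 4.61 and 3.84. *Mir9-2* had 2.93 in WT and no AGO2 cluster in either *Mov10* Deletion library. Those libraries may not be independent here, as their *Mir9-1* AGO2 clusters had the same limits (chr3:88215614-88215641). In WT the −log10 p was 2.82 at *Mir9-1* and 2.96 at *Mir9-2*, below the limit of 3. The best *Mir9-3* cluster of replicate 2 was very short (chr7:79505279-79505281). Mature miR-9-5p is the same at all these loci, so its reads cannot be told apart between them and differences between loci are uncertain.

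The 5 genes with the highest scores among those with miR-9-5p clusters in WT alone all had AGO2 clusters at the same place in both *Mov10* Deletion libraries. Those libraries held 616014 and 616005 AGO2 clusters in replicates 1 and 2, against 359172 in WT. Presence of an AGO2 cluster in both may therefore not be independent. *Dynll2*, a dynein light chain, led with a WT score of 21.5 (chr11:87980519-87980607, minus strand), where AGO2 log2 enrichment was 1.16 in WT and 1.75 and 1.77 in *Mov10* Deletion. *Mul1*, a mitochondrial E3 ligase, scored 13.7 in WT (chr4:138440396-138440486, plus strand) and had enrichments of 3.26, 4.26 and 4.06. Its cluster held the 6-nt match, shown because it is the linked site among these genes.
Mul1: ctttgcttgcttttgCCAAAGaaagg
*Hnrnpdl*, an RNA-binding protein gene, scored 15.9 in WT, with AGO2 enrichments of 1.91, 3.16 and 1.93. *Hcfc2* scored 15.9 too, with 4.86, 3.57 and 3.25, and a miR-124-3p cluster lay there in replicate 1. *Nfic*, a nuclear factor I gene, scored 13.6, with 3.801, 4.61 and 4.84. Of these 5 places, AGO2 enrichment was below WT in both *Mov10* Deletion libraries at *Hcfc2* and above WT in both at the others. At *Hnrnpdl* replicate 2 was barely above WT, at 1.93 against 1.91. Over all AGO2 clusters the enriched share was also higher in *Mov10* Deletion, at 5.18% in replicate 1 and 3.10% in replicate 2 against 2.11% in WT. The difference at these places was not tested.

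The leading genes of the 64 with clusters in both replicates but none in WT had lower scores. Each named cluster had the same limits in both replicates, so these do not count as independent findings. *Sec24b*, of the vesicle coat, had 6.43 in replicate 1 and 8.0 in replicate 2, and no AGO2 cluster lay there in any library. *Clpb*, a mitochondrial chaperone, had 6.34 and 7.83, and miR-128-3p was assigned to the same cluster in both. AGO2 log2 enrichment at this place was 3.76 in WT, where it passed the limits for enrichment, and 1.80 and 1.25 in replicates 1 and 2, where it did not. *Ythdf1*, a reader of methylated mRNA, had 8.0 and 5.67, with AGO2 log2 enrichments of -1.79 and 1.62 and no AGO2 cluster in WT. *Kcnk10*, a potassium channel, had 5.27 and 5.50 (chr12:98434795-98434856, minus strand), with AGO2 log2 enrichments of 6.58 and 6.76 there and of 6.27 in WT. *Dido1* had 5.0 and 7.0, and was 1 of 4 genes tied at a lower score of 5.0 for the fifth place. Its AGO2 log2 enrichments were 0.80 and 5.06, with no AGO2 cluster in WT.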

How the data were processed

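The authors mapped reads to repeats, then to mm10 with STAR 2.7.7a, after UMI-tools 1.1.1 and cutadapt 3.2, and called AGO2 clusters with CLIPper. miRNAs from miRBase were placed with Bowtie 1.2.3 on reads that mapped to neither, the remainder of each read was mapped to the genome, and target clusters were called with the same tool. All overlapping miR-9-5p clusters of the *Mov10* Deletion libraries had identical limits. The deposited score of a miRNA target cluster is unitless and its definition is not given in the sources used here. The deposited AGO2 cluster values are log2 enrichment of IP over input and −log10 p, as the authors computed them. Read depth is unknown from these files, which list clusters only. Input libraries were not used on their own.

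Clusters were given to RefSeq genes (GRCm38.p6) on the same strand by their midpoint with Python 3.11.15, pandas 2.3.3 and NumPy 2.4.6. A strand was known for 98.0% of protein-coding genes, taken from RefSeq or, where missing there, from GENCODE vM39. Over one set of genes placed in both builds, 95.5% of miR-9-5p clusters fell in a gene with mm10 positions and 49.3% with GRCm39 positions. Gene ends were linked to GENCODE vM39 transcripts for 3274 of 7146 genes searched, and let-7c-5p and miR-125b-5p served to check the link in place of miR-124-3p. Recurrence needed 1 nt of overlap on the same strand and the same miRNA. Exact intervals came from SciPy 1.17.1, and no test between genotypes was run. Overlap and distance functions were tested on simulated data.

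Named genes were, by rule, the 12 in all libraries with the highest lowest-library best score, up to 6 genes of each of 5 lists by the same ranking, 5 genes of WT alone, 5 of both *Mov10* Deletion libraries alone, the 5 with the most clusters, *Numa1* and *Mov10*. Some genes that the rule names are not reported here. Members and lists were chosen with earlier results of these data known.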

Additional observations from a re-analysis of the deposited data

How the results depend on the processing

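No paired analysis was possible because the groups share only replicate number 1 and no test was run. With 1 WT and 2 *Mov10* Deletion libraries, no difference between genotypes can be told from a difference between libraries, and low scores recur least, so gene counts follow the score threshold. Seed shares rest on 11.4% of clusters.

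The share of assignments in WT (9.12%) was 9.75% in clusters of a single miRNA and 9.93% at a minimum score of 5; leaving out ribosomal genes and the mitochondrial genome, an alternative chosen after seeing the data, changed no library's share beyond its interval. At a minimum score of 5, genes with a cluster numbered 777 in WT, 660 in replicate 1 and 272 in replicate 2, with 129 in all 3, 367 in WT alone and 17 in both *Mov10* Deletion libraries alone. In clusters of a single miRNA, 238 genes were in all 3. With the 924 highest-scored clusters of each library (chosen after seeing the data), 749 genes were in WT, 743 in replicate 1 and 269 in WT alone. Without 1 *Mov10* Deletion replicate, genes shared with WT numbered 471 to 772, those in WT alone 743 to 1044 and those absent from WT 279 to 706. Recurrence of WT clusters was 62.3% at WT scores of at least 5, and 21.2 to 36.6% with 1 *Mov10* Deletion library left out.

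Within the last 3000 nt of the gene lay 35.7% (WT), 29.9% (replicate 1) and 31.0% (replicate 2) of clusters, and within the last 1000 nt at a minimum score of 5 it was 17.8%, 16.3% and 20.1%. The median WT score was 4.70 in clusters of a single miRNA. On AGO2 clusters with −log10 p of at least 5 lay 14.0%, 11.5% and 13.6%. The 6-nt seed match was found in 56.6%, 46.5% and 44.8%, and the 7-nt match at scores of 5 or more (added after seeing the data) in 31.7% of replicate 2 clusters, 35.2% of WT clusters and 23.1% of replicate 1 clusters. Genes in all libraries at a minimum score of 5, likewise added, were 2 neural transcription factors, 4 RNA-binding proteins, 5 of the cytoskeleton and 2 of adhesion. Without that minimum the counts were 5, 9, 9 and 8 in the same order. With 1 *Mov10* Deletion library left out and no such minimum, also added, they were 5 to 8, 9 to 18, 12 and 9 to 15.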
